A study of Mus musculus with 2 samples.

Results

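The wide peaks of an anti-Nr4a2 chromatin immunoprecipitation (ChIP-seq) experiment in BV2 cells were examined. BV2 is an immortalised mouse microglial line. Members were chosen by measured width, as the peaks on chromosomes 1 to 19 that were at least 2.1 times as wide as the estimated DNA fragment length. There were 353 of them among 6996 peaks on these chromosomes (5.05%, exact binomial 95% interval 4.54 to 5.58) and 7680 peaks in the deposited list. The comparison set was the 2066 peaks exactly as wide as the fragment length, which is the shortest width that the peak caller reports and is called fragment-width here. The other 4577 peaks were of intermediate width.

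The study made 1 library from DNA precipitated with the anti-Nr4a2 antibody and 1 library from input DNA of BV2 cells. Names in the file header carry the tag H2O2, whereas the labels give no treatment or genotype, so none is assumed. After duplicate removal the libraries held 20365794 and 22520884 tags. Neither kind of library was replicated, so no test between conditions was possible, and intervals cover counting error only.

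Nr4a2 (Nurr1) is an orphan nuclear receptor of the NR4A family. As a monomer it binds an extended AGGTCA hexamer, AAAGGTCA, and it can also pair with a retinoid X receptor. Midbrain dopamine neurons depend on it, and in microglia and astrocytes it is known as a repressor of inflammatory transcription. The width of a called peak is the length over which tags exceed the background. The tag size was 149 bp, per the file header, and enriched stretches up to a tag size apart were joined. The number of stretches joined in a wide peak is not recorded in the list.

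Some of the wide peaks lay on gene promoters. Of the 353 wide peaks, 11 overlapped a RefSeq promoter window (250 bp before to 50 bp after a coding start site, GRCm38.p6). The windows of the 5 with the highest fold enrichment are printed, together with that of Atxn7, which holds the AGGTCA hexamer. Each reads 5′ to 3′ on the gene's strand, and capitals mark the bases inside the wide peak. They lie at chr1:185331909-185332208 (plus strand, Bpnt1), chr11:74925899-74926198 (minus, Srr), chr19:16780884-16781183 (minus, Vps13a), chr14:122106832-122107131 (plus, Tm9sf2), chr8:70439524-70439823 (minus, Crtc1) and chr14:14012241-14012540 (plus, Atxn7).
Bpnt1: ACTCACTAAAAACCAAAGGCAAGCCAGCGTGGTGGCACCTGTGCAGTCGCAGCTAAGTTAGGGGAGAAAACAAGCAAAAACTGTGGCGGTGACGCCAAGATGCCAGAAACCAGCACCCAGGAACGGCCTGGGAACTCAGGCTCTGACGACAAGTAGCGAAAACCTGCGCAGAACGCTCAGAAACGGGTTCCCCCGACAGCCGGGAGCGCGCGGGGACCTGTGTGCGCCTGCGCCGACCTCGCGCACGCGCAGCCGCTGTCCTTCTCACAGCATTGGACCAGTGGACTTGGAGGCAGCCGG
Srr: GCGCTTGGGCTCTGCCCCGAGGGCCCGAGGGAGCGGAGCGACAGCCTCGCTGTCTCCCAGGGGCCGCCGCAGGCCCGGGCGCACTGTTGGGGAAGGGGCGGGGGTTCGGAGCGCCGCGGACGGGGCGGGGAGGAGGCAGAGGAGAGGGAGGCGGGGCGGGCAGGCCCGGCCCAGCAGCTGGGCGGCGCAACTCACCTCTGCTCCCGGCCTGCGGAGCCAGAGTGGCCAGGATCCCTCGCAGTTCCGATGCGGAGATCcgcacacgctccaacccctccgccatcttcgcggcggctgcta
Vps13a: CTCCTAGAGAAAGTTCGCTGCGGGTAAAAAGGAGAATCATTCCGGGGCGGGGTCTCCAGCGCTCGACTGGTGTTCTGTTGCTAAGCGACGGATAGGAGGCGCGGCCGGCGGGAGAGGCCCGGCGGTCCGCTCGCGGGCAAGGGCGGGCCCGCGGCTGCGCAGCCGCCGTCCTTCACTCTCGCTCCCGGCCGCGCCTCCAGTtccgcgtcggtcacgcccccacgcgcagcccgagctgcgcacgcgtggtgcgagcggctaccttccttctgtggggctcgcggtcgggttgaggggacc
Tm9sf2: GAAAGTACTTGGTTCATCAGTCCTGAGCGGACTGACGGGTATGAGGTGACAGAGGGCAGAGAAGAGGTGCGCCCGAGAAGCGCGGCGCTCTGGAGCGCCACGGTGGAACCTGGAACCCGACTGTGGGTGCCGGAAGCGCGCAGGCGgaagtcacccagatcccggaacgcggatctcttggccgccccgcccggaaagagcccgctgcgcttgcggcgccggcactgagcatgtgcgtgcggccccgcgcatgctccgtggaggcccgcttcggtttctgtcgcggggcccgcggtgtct
Crtc1: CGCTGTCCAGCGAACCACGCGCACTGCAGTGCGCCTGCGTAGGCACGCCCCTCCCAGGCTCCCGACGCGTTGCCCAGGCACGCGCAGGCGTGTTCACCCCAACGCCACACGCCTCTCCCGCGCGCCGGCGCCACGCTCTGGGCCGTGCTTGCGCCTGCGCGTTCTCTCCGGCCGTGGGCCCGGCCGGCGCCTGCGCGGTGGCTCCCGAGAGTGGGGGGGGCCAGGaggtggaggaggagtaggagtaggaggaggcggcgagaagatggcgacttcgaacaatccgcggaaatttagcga
Atxn7: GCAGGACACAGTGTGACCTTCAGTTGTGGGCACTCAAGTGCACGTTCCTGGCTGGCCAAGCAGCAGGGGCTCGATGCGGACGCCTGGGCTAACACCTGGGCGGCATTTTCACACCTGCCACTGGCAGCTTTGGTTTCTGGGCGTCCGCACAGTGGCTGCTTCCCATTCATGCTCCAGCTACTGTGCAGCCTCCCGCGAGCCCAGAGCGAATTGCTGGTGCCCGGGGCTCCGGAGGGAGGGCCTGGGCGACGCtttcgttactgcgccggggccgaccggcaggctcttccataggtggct

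The peak over the Bpnt1 window covered all 300 of its bases, and that over Crtc1 covered 225. Over Srr, Vps13a, Tm9sf2 and Atxn7 the peaks covered 257, 201, 146 and 252 bases. The 11 windows under wide peaks had a median GC content of 64.7% (42.3 to 75.3) and a median of 24 CpG dinucleotides (4 to 42). The 23 windows under fragment-width peaks had 65.3% GC and 25 CpG, against 57% and 14 over all 20084 windows of the table. Windows under both kinds of peak thus had higher medians than the table, and the wide and fragment-width medians lay close together. The letters AAAGGTCA, searched on both strands, were in none of the 11 windows, in none of the 23 and in 1.29% of all windows. The hexamer AGGTCA, which AAAGGTCA contains, was in 2 of 11, 3 of 23 and 14.7% of all. In the Atxn7 window it starts 237 bases before the start site (-237) on the opposite strand, inside the peak. The other was Gm51600, a predicted gene (-67). These are counts of letters in small sets and say nothing of binding.

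The wide peaks were not taller than the rest of the list. Width and height come from the same contrast, so these values are a description. Their widths had a median of 380 bp (quartiles 363 and 415) and reached 652 bp. The summit pileup, which counts ChIP tags extended to the fragment length, had a median of 10 tags in wide peaks (quartiles 9 and 11) and also 10 (9 and 11) in fragment-width peaks. The median fold enrichment over local background was 3.59 in both sets, with upper quartiles of 4.03 and 3.99. A q of 0.05 or less was reached by 181 wide peaks (51.3%) and by 1025 of the fragment-width peaks (49.6%), beside 50.6% of all 6996 peaks. A q of 0.001 or less was reached by 12 wide peaks (3.40%), 5 of the fragment-width peaks (0.242%) and 152 of those between (3.32%). At least 5-fold enrichment was seen in 12 wide peaks (3.40%), 31 of the fragment-width peaks (1.5%) and 219 of those between (4.78%). Strong peaks were thus a small part of each set, and their share was smallest among the fragment-width peaks.

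**Figure D1:**
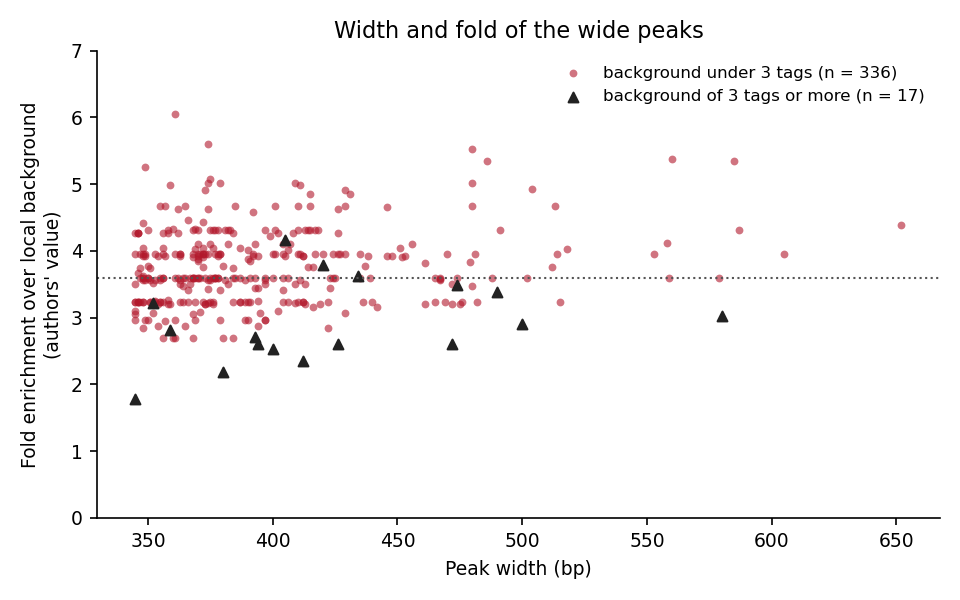
Fold enrichment (authors' value, vertical axis) against width in bp for the 353 wide peaks; triangles are the 17 peaks with a local background of 3 tags or more and the dotted line is the median of 3.59. Peaks of 4-fold and above occur over most of the range of widths, up to the widest at 652 bp, and the triangles lie between 1.78 and 4.16.

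The wide peak of highest fold was at chr11:71431772-71432132, with 16 tags and 6.05-fold. Its summit was inside no coding gene, though inside the predicted Gm16013, and was 189.5 kb from the nearest coding gene, Nlrp1b, which encodes an inflammasome sensor. It was followed by a peak of 16 tags and 5.61-fold inside Sulf2, a heparan sulfate sulfatase gene, at chr2:166112548-166112921. The next, at chr2:166566397-166566876, had 16 tags and 5.53-fold and lay inside Prex1, a Rac exchange factor gene, 93 bp from one gene end and 147.4 kb from the listed start site. A peak of 14 tags and 5.38-fold lay inside Aopep, an aminopeptidase gene, at chr13:63298883-63299442. Its summit was 1344 bp from the hairpin of Mir23b, 1572 bp from that of Mir27b and 2068 bp from that of Mir24-1, a cluster of microRNA genes in that locus.

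Other wide peaks at 5-fold or more had 13 to 16 tags. Bpnt1, which encodes a phosphatase of nucleotide metabolism, and a site 1175 kb from Acvr2a, an activin receptor gene, both had 14 tags and 5.34-fold. The peak nearest Rnd1, a small GTPase gene, reached 5.25-fold, 1.72 kb from the gene. A peak inside Sgsm3 and 3003 bp from Mrtfa, an actin-regulated coactivator gene, reached 5.08-fold. Sites nearest to Ighmbp2, Ccdc60 and Chrdl2 tied at 13 tags and 5.02-fold, at 40.4 kb, 1.81 kb and 22.6 kb from those genes. The 12 wide peaks at 5-fold or more had local backgrounds of 1.79 to 2.34 tags, against a median of 1.81 tags over all wide peaks.

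The widest peak, 652 bp at chr19:5278683-5279334, lay inside Sf3b2, a splicing factor gene, with 14 tags and 4.39-fold. The next in width was 605 bp inside Rbfox2, a splicing regulator gene, with 10 tags and 3.95-fold. Peaks of 587 bp and 585 bp lay far from coding genes, the first inside the predicted Gm36723 and 289 kb from Id2, an inhibitor of helix-loop-helix factors, and the other 1175 kb from Acvr2a, with 4.31-fold and 5.34-fold. A peak of 580 bp nearest Pabpc4l had 13 tags over a background of 3.62 and so only 3.03-fold. Peaks inside Galnt10 (579 bp), nearest to Ccnd1 (559 bp), a cyclin gene 52.3 kb away, and nearest to Acmsd (558 bp) had 3.59-fold, 3.59-fold and 4.12-fold. The 560 bp peak beside the Mir23b cluster and the 553 bp peak at the start of Rad1, a checkpoint clamp gene, complete the 10 widest. Among these 10, 7 exceeded the wide-peak median of 3.59-fold, and the 126 peaks above 400 bp had a median of 3.92-fold, against 3.59-fold for the 227 from the limit to 400 bp.

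At the limit of the rule, the 20 peaks of the 3 narrowest widths inside it had a median of 10 tags and 3.37-fold. The 13 peaks of the 3 widest widths outside it had 10 tags and 3.59-fold. Inside the limit, the highest folds were 4.27, at Vps13a, at Fam135b and nearest to Trib1 and Susd4. Outside it, high folds were 5.38 in Pkhd1, 4.10 nearest to Dusp27 and 3.92 in Trappc9. The values just inside and just outside overlap. Among fragment-width peaks, the highest folds were 6.44 nearest to Ppm1f, 6.10 nearest to Cdrt4, 5.46 in Csgalnact1 and 5.02 nearest to both Hs3st3b1 and Stxbp6.

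Coding start sites lay close to wide peaks more often than to fragment-width peaks. Position was not used to choose the members, but with 1 library no test was made, and the counting intervals stand in its place. Start sites were listed for 16456 of 20661 coding genes of chromosomes 1 to 19, and none on chromosome 18, which leaves 346 wide and 2033 fragment-width peaks. Starts were also missing elsewhere. On chromosome 15 the wide peaks inside Rida and Vps13b had their nearest listed start 2243 and 3684 kb away. Peaks at unlisted starts cannot count as near a start, yet they stay in these totals. Of these, 22 wide peaks (6.36%, interval 4.03 to 9.47) had their summit within 1000 bp of a start site, against 61 of the fragment-width peaks (3.0%, 2.30 to 3.84). Within 250 bp the shares were 3.47% (12 peaks, 1.80 to 5.98) and 1.33% (27 peaks, 0.877 to 1.93). The interval of the wide peaks lay above that of the fragment-width peaks within 1000 bp. Within 250 bp the intervals overlapped slightly.

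The share was higher in the widest groups of peaks than in fragment-width peaks, with no step at the width limit. It was 3.0% in fragment-width peaks, 3.41% in wider ones up to 190 bp, 3.94% at 191 to 220 bp, 4.39% at 221 to 250 bp, 4.0% at 251 to 300 bp, 6.23% (3.99 to 9.21) from 301 bp to the limit, 5.88% (3.17 to 9.85) from the limit to 400 bp and 7.2% (3.35 to 13.2) above 400 bp. The intervals of neighbouring widths overlap. For all intermediate peaks the share was 4.05% (3.49 to 4.67), and its interval overlaps that of the wide peaks. Among peaks of similar height, 9 to 11 tags, it was 7.98% (4.72 to 12.5) in 213 wide peaks and 3.19% (2.31 to 4.28) in 1318 fragment-width peaks. Among peaks with a local background under 3 tags it was 6.38% (3.99 to 9.59) and 2.99% (2.29 to 3.84). Among peaks with a q of 0.05 or less it was 7.91% (4.39 to 12.9) and 2.98% (2.02 to 4.23). With a q above 0.05 it was 4.73% (2.07 to 9.11) and 3.02% (2.06 to 4.26), and these intervals overlap. Leaving out each chromosome in turn kept the start-site share between 5.85% and 6.95% in wide peaks and between 2.72% and 3.18% in fragment-width peaks.

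**Figure D2:**
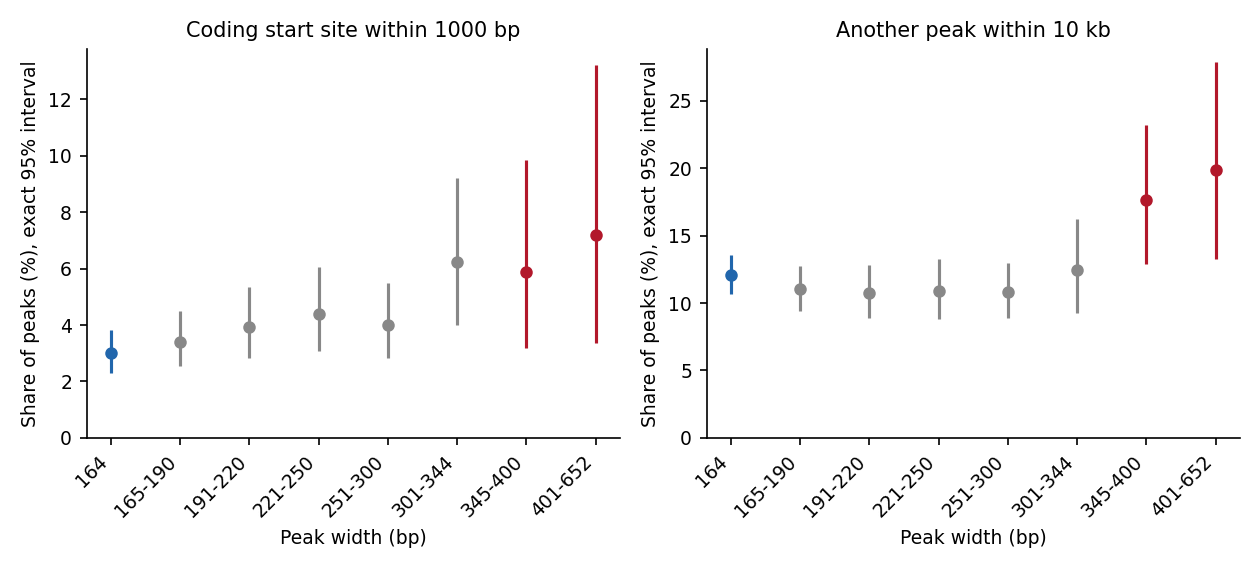
Share of peaks (%) with a coding start site within 1000 bp of the summit (left) and with another peak within 10 kb (right), by peak width in bp; bars are exact binomial 95% intervals, blue is the fragment-width set and red the wide peaks. The left panel runs from 3.0% to 7.2% with overlapping intervals between neighbours, and the right panel stays between 10.7% and 12.4% below the limit and reaches 17.6% and 19.8% above it.

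The 22 wide peaks at start sites had 8 to 14 tags, folds of 2.60 to 5.34 (median 3.88) and widths of 346 to 553 bp. Of these, 14 had a q of 0.05 or less. The peak at Bpnt1 had 14 tags, a −log10 q of 3.27 and its summit 151 bp from the start site. A peak of 13 tags and 4.93-fold lay 32 bp from an end of H3c13 and 513 bp from the start of H2bc18, both replication-dependent histone genes. Histone genes have near-identical copies, so the placement of reads there is uncertain. The peaks at Srr, the serine racemase gene, and at Vps13a, which encodes a lipid transfer protein, had 11 tags and 4.27-fold, with summits 212 and 121 bp from the starts. The summit at Srr also lay inside its neighbour Smg6, a nonsense-mediated decay factor gene.

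Crtc1, a CREB coactivator gene, had 12 tags and 3.91-fold, 272 bp from its start. Dusp5, which encodes an ERK phosphatase, had 10 tags and 3.83-fold at 138 bp. Tada2b (10 tags, 3.76-fold, 831 bp) and Atxn7 (9 tags, 3.59-fold, 122 bp) both encode subunits of the SAGA acetyltransferase complex. Nr6a1, an orphan nuclear receptor gene, had 9 tags and 3.59-fold at 112 bp. Immp2l, a mitochondrial peptidase gene, had 11 tags and 4.10-fold at 609 bp. Rad1, Tm9sf2 and Psme3ip1 each had 10 tags and 3.95-fold. Scg3 and Nfasc had 3.92-fold, and Avpi1 3.85-fold, with 10 tags each.

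The 8 start-site peaks with a q above 0.05 were at Atxn7, Nptn, Nr6a1, Zfp207, Art3, Gm51600, Tmem219 and Tmem97. Their pileup was 8 or 9 tags, except for 11 tags at Tmem97 over a background of 3.62, which gave 2.60-fold. The lowest pileup among all 353 wide peaks was 7 tags, so single start-site peaks of this group rest on few tags.

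**Figure D3:**
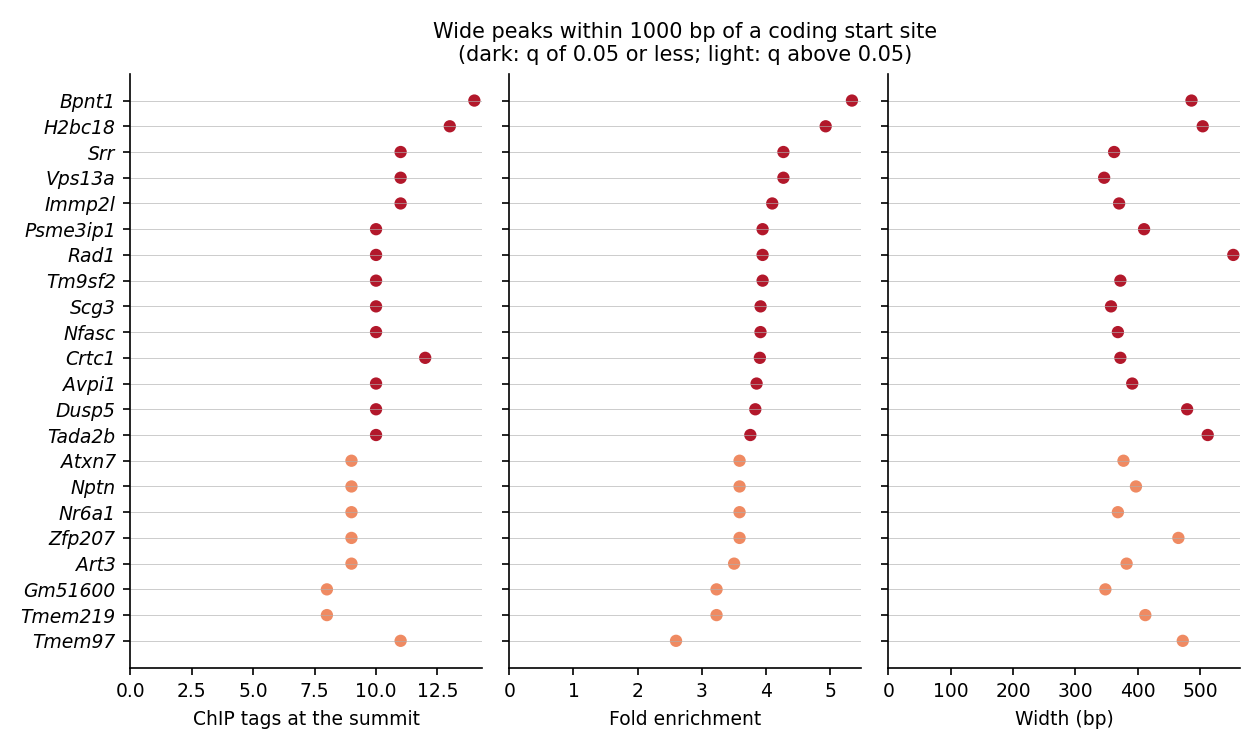
Summit tags, fold enrichment and width in bp for each of the 22 wide peaks within 1000 bp of a coding start site, named by the gene whose start is nearest; dark points have a q of 0.05 or less and light points a q above 0.05. Bpnt1 and H2bc18 stand highest at 14 and 13 tags, and most others lie between 8 and 12 tags.

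Counted by either end of any gene record other than pseudogenes, the difference was smaller. Of the 353 wide peaks, 34 (9.63%, 6.76 to 13.2) lay within 1000 bp of a gene end, 178 (50.4%, 45.1 to 55.8) inside a gene further from its ends, and 141 (39.9%, 34.8 to 45.3) between genes. In fragment-width peaks these shares were 7.26% (6.18 to 8.47), 49.95% (47.8 to 52.1) and 42.8% (40.6 to 44.95). The intervals of the 2 sets overlap in all 3 classes. By either end of coding genes alone, the shares within 1000 bp were 7.65% (5.10 to 10.9) in wide peaks and 5.18% (4.26 to 6.22) in fragment-width peaks. These intervals overlap too. Besides the start-site genes, gene-end peaks of high fold were at Prex1 and at Mrvi1 (11 tags, 4.31-fold, 621 bp). Aldh2, the mitochondrial aldehyde dehydrogenase gene, had 11 tags and 4.10-fold at 474 bp, and Arhgef37 10 tags and 3.95-fold at 50 bp. Strand was not listed for Arhgef37 on chromosome 18. The nearest listed starts to the Mrvi1 and Aldh2 peaks were those of Rnf141 and Acad12, 24.5 and 25.6 kb away. Whether the ends near these peaks are gene starts was not determined.

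Wide peaks were rarer in the gene-poorest places. A summit over 100 kb from any coding gene end was found for 67 wide peaks (18.98%, 15.02 to 23.5) and for 568 of the fragment-width peaks (27.5%, 25.6 to 29.5), and these intervals do not overlap. The share over all 6996 peaks was 25.8% (24.8 to 26.8). The median distance to a coding gene end was 24.4 kb (95% interval of the median 19.5 to 31.2) in wide peaks and 32.5 kb (29.1 to 36.9) in fragment-width peaks. The median number of coding genes within 1 Mb centred on the summit was 8 and 7. Coding genes that held a summit had a median length of 97.1 kb (81.5 to 129.0) for wide peaks and 107.6 kb (97.5 to 117.6) for fragment-width peaks, so host gene length did not differ beyond the intervals.

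**Figure D4:**
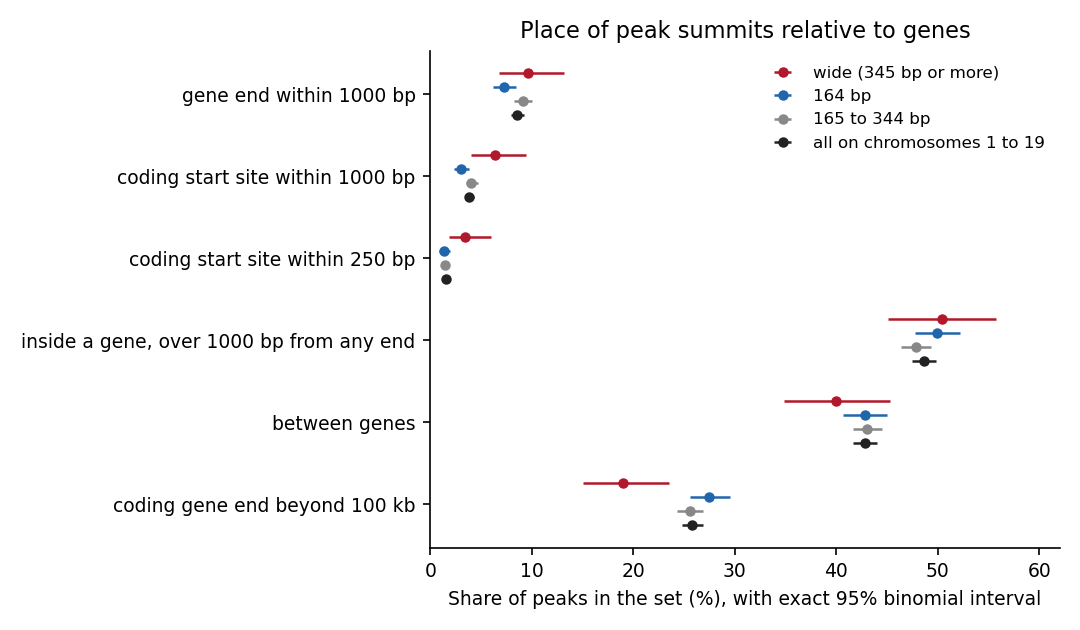
Share of peaks (%) in each class of place, by set, with exact binomial 95% intervals; points are the wide peaks, the fragment-width peaks, the intermediate peaks, and all. The red points of the wide peaks lie right of the blue points of fragment-width peaks for start sites (6.36% and 3.0% within 1000 bp) and left of them beyond 100 kb (18.98% and 27.5%), while the shares inside and between genes overlap.

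Wide peaks more often had another peak close by. Another peak of the list began or ended within 10000 bp of the edge of 65 wide peaks (18.4%, 14.5 to 22.9), of 249 of the fragment-width peaks (12.1%, 10.7 to 13.5) and of 504 of those between (11.01%, 10.1 to 11.95). The interval of the wide peaks lay above both others. Of the 65, 10 had another wide peak within that distance. The median gap to the nearest peak was 56.4 kb (47.3 to 69.0) for wide peaks and 75.4 kb (69.0 to 83.1) for fragment-width peaks. With only peaks of q 0.05 or less in the list, the shares were 9.39% (5.57 to 14.6) and 6.24% (4.84 to 7.90), and their intervals overlap.

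A raised local background was more common at wide peaks. A local background of 3 tags or more was found at 17 wide peaks (4.82%, 2.83 to 7.60) and at 29 of the fragment-width peaks (1.40%, 0.942 to 2.01). In intermediate peaks it was found at 142 (3.10%, 2.62 to 3.65), an interval that overlaps that of the wide peaks. Of the 17, 7 lay on chromosome 3 and 5 lay on chromosome 5 between 15037286 and 15671505, nearest to Gm17019, Speer4c and Speer4d, members or neighbours of a multi-copy gene family. They had 17 to 44 tags over backgrounds of 4.60 to 18.1 and folds of 2.19 to 3.48. The tallest wide peak of all, 75 tags at chr3:5860401-5860745, stood over a background of 41.6 and had only 1.78-fold. Without peaks of raised background, another peak lay within 10000 bp of 16.4% (12.6 to 20.8) of wide peaks and 11.7% (10.4 to 13.2) of fragment-width peaks, and these intervals overlap.

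The summit lay in the outer parts of the peak more often in wide peaks than in narrower ones. Its median distance to the nearer edge was 91 bp (quartiles 60 and 123). It lay in the outer 25% at either side of 194 wide peaks (55.0%, 49.6 to 60.2), against 814 of the fragment-width peaks (39.4%) and 1384 of those between (30.2%). These outer parts together are as long as the middle, so the interval of the wide peaks includes an even split. This is a description of the same signal that set the width. Placing peaks by their centre in place of the summit left the start-site share at 6.36%.

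The share of wide peaks varied moderately over the chromosomes. Chromosome 3 had 44 wide peaks of 585 (7.52%, 5.52 to 9.97), chromosome 15 had 43 of 663 (6.49%, 4.73 to 8.64) and chromosome 1 had 35 of 870 (4.02%, 2.82 to 5.55). Chromosome 9 had 5 of 250 (2.0%, 0.653 to 4.61). Of the 44 on chromosome 3, 7 stood over a raised background as given above. The intervals of chromosomes 3 and 9 lie on either side of the share over all 19 chromosomes, and those of the other 17 include it. Chromosomes 6 and 10, where the list is sparse, had 1 wide peak each among 47 and 58.

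**Figure D5:**
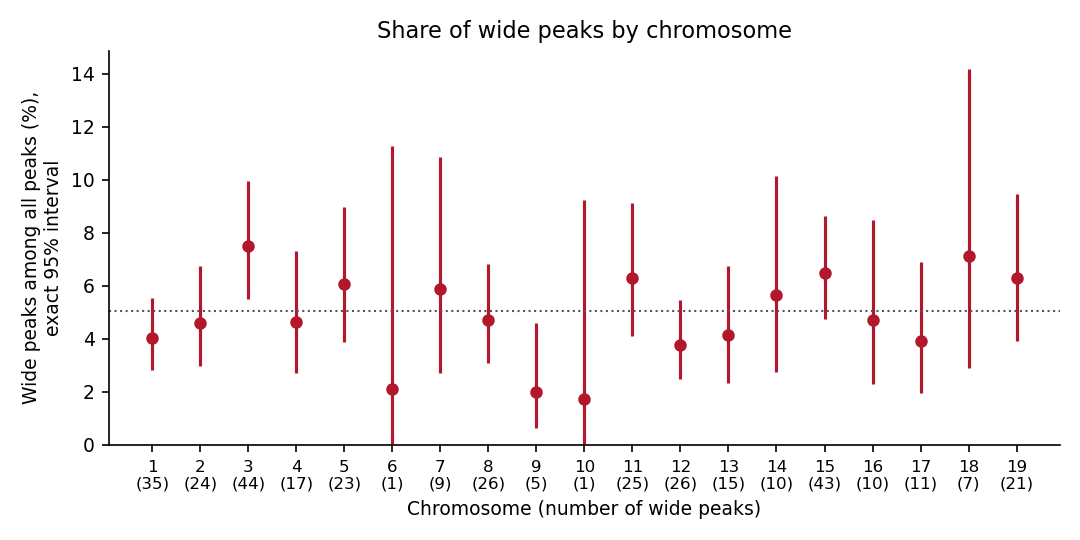
Wide peaks as a share (%) of all peaks on each of chromosomes 1 to 19, with exact binomial 95% intervals and the number of wide peaks in brackets; the dotted line is the share over all 19 chromosomes, 5.05%. Chromosome 3 (7.52%) lies above the line and chromosome 9 (2.0%) below it with intervals that do not reach it.

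The 353 wide peaks had 329 different nearest coding genes, of which 311 were nearest to 1 wide peak and 18 to several. Of the 329, 106 (32.2%) were also nearest to a fragment-width peak, which is 6.35% of the 1668 genes nearest to those. Over all 20661 coding genes, 8.44% were nearest to a fragment-width peak or held its summit, a wider count than the nearest genes alone. The spacing of genes was not adjusted for, so this overlap was not tested. Pabpc4l, a poly(A)-binding protein family gene in a gene-poor part of chromosome 3, was nearest to 6 wide peaks of 33 peaks in all. They lay 41.5 to 1134 kb away, with 2.95-fold to 4.91-fold. Fstl5, a follistatin-like gene, was nearest to 3 wide peaks of 20, with folds of 2.85 to 4.23. Gphn, which encodes the inhibitory synapse scaffold gephyrin, was nearest to 3 wide peaks of 8 peaks in all. These 3 lay inside it, with folds of 2.96 to 4.04.

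Wide peaks were also counted in gene lists on the biology of Nr4a2, microglia and stress, among others. Of 20661 coding genes, 1.74% were nearest to a wide peak or held its summit, and 8.44% did so for a fragment-width peak. These shares are the background for each count, and no list was tested. The NR4A family and partners had 0 of 15 genes with a wide peak (3 with a fragment-width peak), proinflammatory and NF-κB genes 0 of 29 (3), oxidative stress defence 0 of 24 (3) and dopamine neuron genes 0 of 19 (3). Heat shock and unfolded protein genes had 0 of 22 (0), ribosomal protein genes 0 of 36 (2), autophagy and lysosome genes 0 of 20 (2), and glial and neuronal markers 0 of 24 (2). At the background share fewer than 1 gene would be found in each of these 8 lists, so their zeros carry little information.

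Microglia identity genes had 2 of 25 (3 with a fragment-width peak), namely Csf1r and Irf8. Csf1r, which encodes the receptor that microglia need for survival, held a wide peak of 401 bp, 11 tags and 4.31-fold, 5.50 kb from a gene end. Irf8, a transcription factor gene of the myeloid lineage, was the nearest coding gene to wide peaks at chr8:120812259-120812640 (382 bp, 11 tags, 4.31-fold, 55.7 kb away) and chr8:120862339-120862856 (518 bp, 12 tags, 4.03-fold, 106.1 kb). All of them had a −log10 q of 1.76, so a q below 0.05. The 2 peaks nearest to Irf8 were the only ones on chromosomes 1 to 19 that had it as the nearest coding gene, and both were wide. Counting gene records other than coding genes, Irf8 was not the nearest gene to either. The summit of the 382 bp peak lay closer to an end of the predicted Gm33199. That of the 518 bp peak lay inside the predicted Gm39267.

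Immediate early and DUSP genes had 2 of 25 (6 with a fragment-width peak), namely Dusp5 and Myc, the latter with a peak of 12 tags and 4.63-fold 606 kb away. Spliceosome genes had 1 of 26 (3), Sf3b2, cell cycle genes 2 of 30 (4), Ccnd1 and Cdk6, and lymphocyte markers 1 of 14 (0), Cd3e at 8.68 kb with 8 tags and a q above 0.05. Distances of this size do not tie a peak to a gene.

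Cadherin and protocadherin genes, which encode cell adhesion proteins, had the highest share of the lists, 6 of 28 with a wide peak. They also had 14 with a fragment-width peak and 20 with any peak, against 21.5% of all coding genes with any peak. Of the list's wide peaks, those in Cdh4 (393 bp, 11 tags, 4.10-fold) and Pcdh10 (380 bp, 13 tags, 3.77-fold) lay inside the gene. The list leaves out the clustered Pcdha genes, over which 1 wide peak of 9 tags and 3.59-fold lay, 19.2 kb from an end of Pcdha1. Another lay 102.9 kb from Pcdh10, and those nearest to Pcdh7, Cdh10, Cdh12 and Pcdh18 were 63.5, 258, 294 and 1221 kb away. Synaptic adhesion and axon guidance genes had 3 of 48 (19 with a fragment-width peak). Nrxn3, a neurexin gene, held 2 wide peaks with 12 and 10 tags and 4.67-fold and 3.92-fold. Flrt2, a leucine-rich repeat adhesion gene, had 1 inside (12 tags, 3.50-fold) and 1 at 472 kb, and Ptprt held 1 of 10 tags and 3.76-fold. No adjustment was made for the length or spacing of genes in any list.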

How the data were processed

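ChIP and input DNA of BV2 cells were sequenced, and 1 peak list was used. Reads were aligned to mm10 with Bowtie2, per the submitters' processing notes, which also name ChIPseeker and MACS2 2.2.6. Peaks were called with MACS 2.1.4 at a p cutoff of 0.001 with broad calling off, per the file headers. The deposited pileup is a coverage signal, the deposited −log10 p and q values are the caller's, and the deposited fold is a ratio of pileup to local background, each plus 1. Deposited q values were used, although the header announces that none would be computed. Background was recovered as (pileup + 1) / fold - 1. No replicate was used here, so no tests were run. Wide peaks were 345 bp or more, about 2.1 times the fragment length of 164 bp per the file headers; fragment-width peaks were exactly 164 bp and intermediate ones 165 to 344 bp. The limit was also set at 328 and 400 bp.

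Summits were placed on RefSeq gene records (GRCm38.p6) with Python 3.11.15, pandas 2.3.3 and scipy 1.17.1. Shares carry Clopper-Pearson and medians order-statistic 95% intervals. The design asked for start sites where strand was listed. Since strand was listed for part of the genes, gene ends and start sites are both given. Of 399 entries of 15 gene lists, 385 matched a coding gene on chromosomes 1 to 19. Named were the 10 widest and 10 strongest wide peaks, the 10 strongest at coding gene ends and up to 4 per list. Also named were genes nearest to 3 or more wide peaks, and peaks at the width limit. The remaining start-site genes, ties at the tenth place, the Mir23b cluster, Gm16013, Gm36723, Gm33199, Gm39267, Rida, Vps13b and Pcdha1 were added after seeing values. Some peaks that this rule names are not reported here. The planned comparison of sequence under all peaks was not run, as no genome was used here. Members and lists were chosen with earlier results of these data known. Placement functions were tested on simulated data.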

Additional observations from a re-analysis of the deposited data

Results flagged for a closer look

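Peaks as wide as the wide peaks also occurred outside chromosomes 1 to 19, in rows that the comparisons do not use. All were called above the input. Chromosome X had 32 among 652 peaks (4.91%), with a median of 3.63-fold, and 1 of them, at chrX:128363452-128363797, was 346 bp wide with 38 tags and 10.5-fold, the highest fold in the whole list. The mitochondrial genome had 5 among 9 peaks, with folds up to 4.98 and widths up to 803 bp. Unplaced contigs had 1 among 19, with 13 tags and 3.77-fold, and chromosome Y had none among 4. No cause of these was tested.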

How the results depend on the processing

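No paired analysis was possible because each kind of library had 1 sample. Of 61 alternative values, 45 stayed within the counting interval of the reported value (or within 1.5 times for the number of genes) and 16 moved outside it. By construction of the window, the share at gene ends was 5.95% within 500 bp and 22.4% within 3000 bp, the start-site share 10.7% within 3000 bp, and the share with another peak 46.7% within 50000 bp. In fragment-width peaks the same windows gave 4.31%, 18.9%, 6.89% and 38.7%. For the start-site share within 3000 bp the intervals of wide peaks (7.64 to 14.4) and fragment-width peaks (5.82 to 8.08) overlap. With coding genes only, 50.4% of wide peaks lay inside a gene. With a q of 0.05 or less the median fold was 4.01, the median pileup 11 tags, the share with another peak 9.39% and the nearest genes 172. With a q of 0.001 or less, 12 wide peaks were left, with a median of 5.30-fold and 16 tags, 50% inside genes, a median distance of 7.44 kb to a coding gene end and 11 nearest genes. With a width limit of 400 bp the median fold was 3.92 and the nearest genes 125. The start-site share of wide peaks ran from 4.91% to 8.33% under the other settings. These were a window of 500 bp, where fragment-width peaks had 1.82%, and a lower and a higher width limit. They also were a q of 0.05 or less and of 0.001 or less, background, the X chromosome, any overlap and the centre. The start-site alternatives, the limits of 9 to 11 tags and the leaving out of chromosomes were chosen after seeing the data. A summit of 7 to 11 tags limits what can be said of any single peak.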
